A study of Mus musculus with 18 samples.

Results

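The Fc receptor genes examined here were Fcer1g, Fcer1a, Fcgr1, Fcgr2b, Fcgr3, Fcgr4 and Fcgrt, 7 of the 25124 genes counted, chosen by name as the receptors that bind the constant (Fc) region of antibodies. They were measured by RNA-seq in inguinal white (iWAT), epididymal white (eWAT) and brown (BAT) adipose tissue. The mice were male C57BL/6J, either wildtype (WT) or carrying a global caspase-6 knockout (C6KO), and both genotypes came from crosses of heterozygous parents. All of them, WT included, were given a high-fat diet (HFD, fat supplying 60% of calories) over 12 weeks, begun at 10 to 14 weeks of age. There were 3 libraries for each genotype in each depot and 18 in all. The knockout was global, so it was not limited to a single cell type. Each sample is whole tissue, so fewer cells of a type cannot be told apart from less RNA per cell.

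Fc receptors couple antibodies to cells. Fcgr1, Fcgr3 and Fcgr4 encode the ligand-binding chains of the activating IgG receptors, which on macrophages drive uptake of antibody-coated material. They signal through the common γ chain encoded by Fcer1g, which carries an immunoreceptor tyrosine-based activation motif (ITAM) that recruits the kinase Syk. Fcgr2b encodes the inhibitory IgG receptor, which recruits phosphatases through an inhibitory motif. Fcer1a encodes the IgE-binding chain of the high-affinity IgE receptor, which in mice marks mast cells and basophils and also needs the γ chain. Fcgrt encodes the heavy chain of the neonatal receptor FcRn, which pairs with β2-microglobulin and returns IgG and albumin from endosomes to the circulation instead of signaling.

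In the mm10 assembly, 5 of the 7 genes lie on chromosome 1, where Fcgr2b (chr1:170960559-170976071, minus strand), Fcgr4 (chr1:171018926-171029761, plus strand), Fcgr3 (chr1:171051169-171059403, minus strand) and Fcer1g (chr1:171229572-171234349, minus strand) are neighbors. Fcer1a is farther along the same chromosome (chr1:173221271-173227229, minus strand). Fcgr1 is on chromosome 3 (chr3:96282909-96293969, minus strand), the chromosome that also holds Casp6 (chr3:129901415-129914112, plus strand). Fcgrt is on chromosome 7 (chr7:45092993-45103822, minus strand). No other counted gene overlapped a member, and each member was counted on the same transcript in all 3 depots.

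The 250 bases before the start sites are shown for the γ chain and the 3 activating receptors because these genes had similar profiles over the libraries. The sequences are RefSeq's on GRCm38.p6, written 5′ to 3′ along the gene's strand. All 7 members matched a RefSeq start site. Capitals mark GAGGAA, the core of sites for the myeloid ETS factor PU.1, and TTCNNNGAA, the element bound by STAT factors, both searched on both strands. No 2 of these matches overlapped.
Fcer1g (chr1:171234350-171234599, minus strand): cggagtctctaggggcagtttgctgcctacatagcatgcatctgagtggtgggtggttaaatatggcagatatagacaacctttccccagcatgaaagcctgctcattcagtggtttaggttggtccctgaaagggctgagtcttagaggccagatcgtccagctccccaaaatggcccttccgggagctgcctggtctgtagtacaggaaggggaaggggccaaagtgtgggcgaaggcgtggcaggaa
Fcgr3 (chr1:171059404-171059653, minus strand): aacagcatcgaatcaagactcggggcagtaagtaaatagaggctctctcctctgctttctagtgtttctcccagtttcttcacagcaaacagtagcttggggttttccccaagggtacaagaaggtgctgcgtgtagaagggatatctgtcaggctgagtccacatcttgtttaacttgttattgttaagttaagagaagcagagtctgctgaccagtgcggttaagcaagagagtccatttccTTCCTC
Fcgr4 (chr1:171018676-171018925, plus strand): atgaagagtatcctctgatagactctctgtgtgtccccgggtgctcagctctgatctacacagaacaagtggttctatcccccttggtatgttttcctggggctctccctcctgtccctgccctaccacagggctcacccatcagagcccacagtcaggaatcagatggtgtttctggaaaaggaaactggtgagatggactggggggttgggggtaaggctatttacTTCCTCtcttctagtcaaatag
Fcgr1 (chr3:96293970-96294219, minus strand): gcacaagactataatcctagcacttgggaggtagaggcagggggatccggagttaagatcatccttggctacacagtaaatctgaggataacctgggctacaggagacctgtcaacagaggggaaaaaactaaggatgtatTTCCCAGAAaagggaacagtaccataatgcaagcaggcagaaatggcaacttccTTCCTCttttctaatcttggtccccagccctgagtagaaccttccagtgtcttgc
GAGGAA was found in 4 of the 7 members, and in 23.3% of 32851 promoters of the same length. It began 6 bases before the start of Fcgr3, 22 before that of Fcgr4, 55 before that of Fcgr1 and 216 before that of Fcer1a. Fcer1g, Fcgr2b and Fcgrt had no match to these letters in this window. TTCNNNGAA was found in 1 member, Fcgr1, beginning 109 bases before its start, and in 7.02% of all promoters.

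Fcgr2b and Fcgr3 encode receptors with nearly the same extracellular part. Of all windows of 50 bases, 10.9% of those in the Fcgr2b transcript and 12.8% of those in the Fcgr3 transcript (166 windows in each) also occurred in the other gene. Counts of these genes are therefore uncertain to that extent where reads could be placed on either. The other 5 members shared no window with another gene in GENCODE M21.

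Total counts per library ran from 16506034 to 19043523 in iWAT, from 16717201 to 19139694 in eWAT and from 7803108 to 12428683 in BAT. The depot labels fitted their markers, with summed brown adipocyte markers (Ucp1 among them) of 6441 to 14922 CPM in BAT and 15.3 to 71.1 CPM in the white depots. CPM are counts in a library scaled to 1000000. Casp6 was lower in the C6KO libraries of each depot without overlap. It ran from 16.1 to 20.1 CPM in WT iWAT, against 5.55 to 7.98 in C6KO. The eWAT ranges were 19.0 to 23.1 against 4.29 to 6.65, and the BAT ranges were 11.2 to 18.7 against 3.07 to 6.91. The log2 differences were -1.51, -1.85 and -1.50 in that order (edgeR adjusted p = 0.0751, 0.0132 and 0.0671). Several libraries differed from others of their group. In iWAT, C6KO replicate 3 was nearer to the WT libraries than to the other C6KO libraries. Its chi-square values per degree of freedom were 19.6 to 25.5 against WT and 62.4 and 62.7 against C6KO. C6KO replicates 1 and 2 were as far from each other, at 61.5, and were 78 to 97.4 from WT. In eWAT, WT replicate 2 had the highest Fcgr4 of any library. In BAT, WT replicate 2 differed from the other WT libraries by 97.9 and 110 on the same measure, and its summed T and NK cell markers were 46.8 CPM against 5.82 and 9.30. The members' C6KO differences are given with and without these libraries. Leaving out the iWAT C6KO library nearest to WT favors a larger difference by the choice itself.

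Fc receptor levels depended on the depot. In WT mice the activating IgG receptors, the γ chain, Fcgr2b and Fcer1a were all higher in eWAT than in iWAT, and of the 6 members that passed the filter on low counts in each depot, 5 were called higher, where 12.8% of all 15866 genes tested were called higher. A gene was called at an adjusted p under 0.05 with a change of 1.5-fold or more by edgeR's quasi-likelihood test with Benjamini-Hochberg adjustment over all genes tested. The fold was 3.59 for Fcer1g (log2 1.84 ± 0.33 SE, adjusted p = 0.000678), 3.73 for Fcgr3, 4.77 for Fcgr1, 4.98 for Fcgr4 and 2.49 for Fcgr2b. The Fcgr4 value rested on WT replicate 2 of eWAT. Its log2 difference of 2.32 was 1.52 without that library (adjusted p = 0.0127), below the 2.03 of Fcgr1 in the same fit. Fcer1a had 4 to 9 counts per library in iWAT and 105 to 201 in eWAT. It entered the fit through its eWAT counts, so these values are given as a description. Fcgrt was the exception, with a log2 difference of -0.29 ± 0.13 (adjusted p = 0.101).

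BAT had the lowest WT levels of Fcer1g, Fcgr1, Fcgr2b, Fcgr3 and Fcgr4, but not of Fcgrt or Fcer1a. Against eWAT in WT, 5 of the same 6 members were called lower in BAT, where 23.6% of all genes were. The folds were 12.4 for Fcgr4, 11.1 for Fcgr1, 9.61 for Fcer1g, 8.09 for Fcgr3 and 3.66 for Fcgr2b, with adjusted p between 3.34e-07 and 3.81e-05 in the same edgeR fit. Without WT replicate 2 of eWAT, the log2 difference of Fcgr4 went from -3.64 to -2.84 (adjusted p = 5.11e-05), smaller in size than those of Fcgr1 (-3.26), Fcer1g (-3.16) and Fcgr3 (-2.92). Fcer1a had 5 to 8 counts per WT library in BAT. Against iWAT, Fcer1g, Fcgr1, Fcgr3 and Fcgr4 were called lower in BAT (4 of 6, where 18.7% of all genes were), by 2.17-fold for Fcgr3 to 2.68-fold for Fcer1g. Only 2 members were called in this contrast without iWAT WT replicate 3 or without BAT WT replicate 2. Fcgr4, at an adjusted p of 0.0492 in edgeR, kept its call only without BAT WT replicate 1. Fcgr2b missed the threshold (log2 -0.56, adjusted p = 0.0522). Fcgrt was 1.34-fold higher in BAT than in eWAT (log2 0.42 ± 0.13, adjusted p = 0.0122), below the fold minimum, and its WT ranges overlapped between BAT and iWAT.

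Levels of different genes were compared as CPM per kilobase of the counted transcript. In WT iWAT the order was Fcgrt (185 ± 10.1, SD, n = 3), Fcer1g (110 ± 6.38), Fcgr3 (64.3 ± 3.64), Fcgr2b (19.5 ± 2.57), Fcgr4 (8.59 ± 3.34), Fcgr1 (7.02 ± 1.49) and Fcer1a (0.381 ± 0.145). Fcgr4 and Fcgr1 were neighbors whose libraries overlapped. In WT BAT the order was the same, from Fcgrt at 202 ± 35.5 and Fcer1g at 41.2 ± 7.66 to Fcer1a at 0.741 ± 0.113, and again Fcgr4 and Fcgr1 overlapped. In WT eWAT the γ chain led, with Fcer1g at 395 ± 47.4 and Fcgr3 at 240 ± 32.3 above Fcgrt at 151 ± 7.12. They were followed by Fcgr2b (48.5 ± 6.0), Fcgr4 (42.8 ± 31.5) and Fcgr1 (33.5 ± 8.22), with Fcer1a last at 8.06 ± 2.29, and the libraries of Fcgr4 overlapped those of both neighbors. In C6KO eWAT, Fcer1g was at 262 ± 52.0, Fcgr3 at 165 ± 23.7 and Fcgrt at 161 ± 10.7, and Fcgr3 and Fcgrt overlapped. Without division by length, Fcer1g ranked 3 in each depot of WT.

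**Figure D1:**
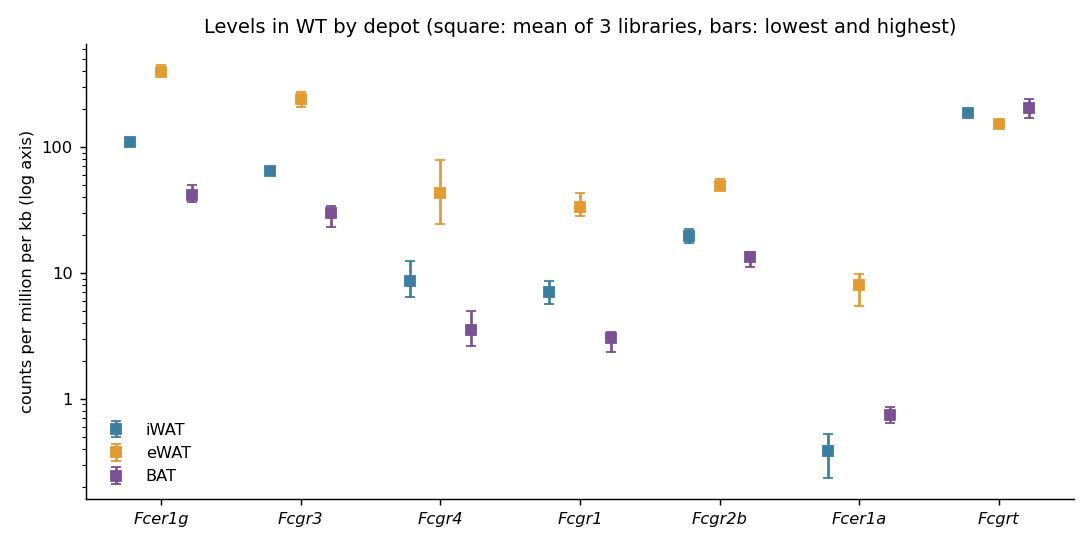
Level of each Fc receptor gene in WT mice by depot, as CPM per kilobase on a log axis, with squares for the mean of 3 libraries and bars from the lowest to the highest library. Apart from Fcgrt, each gene is highest in eWAT. Fcer1g averages 395 in eWAT, 110 in iWAT and 41.2 in BAT.

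C6KO mice had lower estimates for the γ chain and the IgG receptors in all 3 depots, and a higher estimate for FcRn. None of these differences passed the test. In edgeR, 0 of 6 members tested were called in iWAT (0.0275% of all genes in either direction), 0 of 7 in eWAT (0.746%), and 0 of 6 in BAT (1.24%). At an unadjusted p below 0.05, 5 members were lower in both white depots and 4 in BAT, where 9.29% (iWAT), 7.82% (eWAT) and 8.64% (BAT) of all genes were. DESeq2 called 5 members lower in iWAT, where it called 3.22% of all genes lower. It called 3 lower in eWAT (1.23%), and 3 in BAT (2.53%). All 3 C6KO libraries were below all 3 WT libraries for 5 members of iWAT, 6 of eWAT and 4 of BAT, a separation found for 12.2%, 11.2% and 12.1% of all genes. The median log2 difference over the members tested was -1.29 for iWAT, -0.59 for eWAT and -1.03 for BAT, against 0.03, -0.01 and -0.03 over all genes. Fcer1a did not pass the filter on low counts in iWAT or BAT, so no depot other than eWAT had all 7 members in the test.

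**Figure D2:**
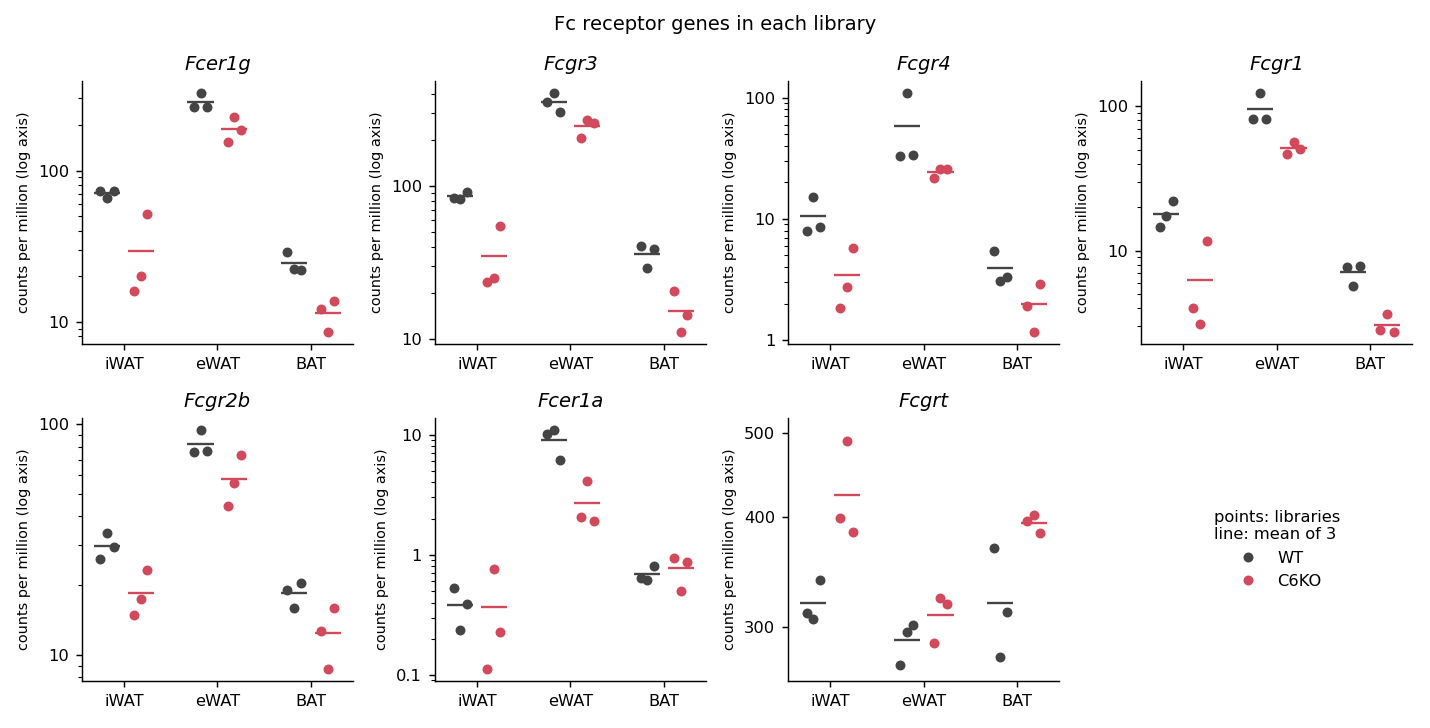
TMM-normalized CPM of each Fc receptor gene in each library, on log axes that differ between panels, with points for WT and C6KO libraries and a line for the mean of 3. In iWAT the highest C6KO point of Fcer1g, at 51.6, is replicate 3, and the other 2 are at 16.0 and 20.2.

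The shared γ chain showed the pattern of the group. In iWAT, Fcer1g was 73.5, 66.0 and 73.6 CPM in WT against 16.0, 20.2 and 51.6 CPM in C6KO. The C6KO libraries were all below WT, and replicate 3 lay closer to WT than to the other 2. The log2 difference was -1.28 ± 0.43 (2.43-fold, edgeR adjusted p = 0.231), and without that library it was -1.99 ± 0.15 (adjusted p = 0.000175). In eWAT it was 263, 325 and 263 CPM in WT against 154, 226 and 185 CPM in C6KO. The groups did not overlap and differed by -0.59 ± 0.15 on the log2 scale (adjusted p = 0.0858 in edgeR). Without WT replicate 2 that was -0.48 ± 0.16 (adjusted p = 0.310), and without C6KO replicate 2 it was -0.73 ± 0.14 (adjusted p = 0.0420). In BAT, Fcer1g was 28.8, 22.2 and 22.1 CPM in WT against 12.1, 8.53 and 13.8 CPM in C6KO. That was a log2 difference of -1.09 ± 0.23 (2.12-fold, edgeR adjusted p = 0.0591), again with no overlap, and -1.15 ± 0.24 without WT replicate 2 (adjusted p = 0.0584).

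Fcgr3, the low-affinity activating IgG receptor and the most abundant activating chain, had the smallest p of the members in iWAT and BAT. In iWAT it was 83.7, 82.0 and 91.4 CPM in WT against 23.6, 25.2 and 55.1 CPM in C6KO. The difference was -1.31 ± 0.32 on the log2 scale (edgeR adjusted p = 0.165), and -1.83 ± 0.13 without C6KO replicate 3 (adjusted p = 0.000145). In BAT it was 40.5, 29.3 and 39 CPM in WT against 20.6, 11.1 and 14.3 CPM in C6KO. All C6KO libraries were below WT there, by -1.24 ± 0.25 (2.37-fold), at an edgeR adjusted p of 0.0505. Without WT replicate 2 of BAT it was -1.38 ± 0.24, at an adjusted p of 0.0277. In eWAT it was 356, 404 and 306 CPM in WT against 206, 271 and 258 CPM in C6KO, a difference of -0.54 ± 0.14 (adjusted p = 0.0916), and -0.43 ± 0.15 without WT replicate 2 (adjusted p = 0.325).

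Fcgr1, the high-affinity IgG receptor, was 14.5, 17.3 and 22.1 CPM in WT iWAT and 4.03, 3.11 and 11.7 CPM in C6KO iWAT. Its log2 difference was -1.52 ± 0.48 in iWAT (edgeR adjusted p = 0.209), and -2.35 ± 0.26 without C6KO replicate 3 (adjusted p = 0.000953). It was -0.89 ± 0.17 in eWAT (adjusted p = 0.0527), where WT libraries ran from 81.2 to 123 CPM and C6KO libraries from 46.8 to 56.8 CPM. The highest WT library there was replicate 2, and without it the difference was -0.66 ± 0.13 (adjusted p = 0.168). In BAT it was -1.20 ± 0.29 (adjusted p = 0.0953), from 5.73 to 7.80 CPM in WT against 2.73 to 3.64 CPM in C6KO, and -1.33 ± 0.31 without WT replicate 2 (adjusted p = 0.0928). Fcgr1 thus had no overlap between genotypes in any depot.

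Fcgr4, an activating receptor found on macrophages, monocytes and neutrophils, depended on single libraries. In eWAT it was 33.3, 109 and 33.9 CPM in WT against 21.6, 25.5 and 25.9 CPM in C6KO. The WT mean rested on replicate 2, and the log2 difference of -1.27 ± 0.55 became -0.46 ± 0.14 without it (edgeR adjusted p = 0.325 and 0.265). In iWAT it was 7.89, 15.3 and 8.56 CPM in WT against 1.85, 2.73 and 5.72 CPM in C6KO, a log2 difference of -1.62 ± 0.44 (adjusted p = 0.168). Without C6KO replicate 3 that was -2.22 ± 0.38 (adjusted p = 0.00923). In BAT it had 33 to 42 counts in WT against 14 to 30 in C6KO. The BAT difference was -0.98 ± 0.44 (adjusted p = 0.380), and -1.12 ± 0.47 without WT replicate 2 (adjusted p = 0.340).

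The inhibitory receptor Fcgr2b had smaller estimates than the activating chains in iWAT and BAT. In iWAT it was 26.1, 33.7 and 29.3 CPM in WT against 14.8, 17.5 and 23.3 CPM in C6KO, a log2 difference of -0.68 ± 0.19 (edgeR adjusted p = 0.168). Leaving out C6KO replicate 3 gave -0.90 ± 0.17 (adjusted p = 0.0136). In eWAT it was 75.5, 94.6 and 76.4 CPM in WT against 44.4, 55.6 and 73.4 CPM in C6KO. The difference was -0.51 ± 0.18 (adjusted p = 0.191), and -0.39 ± 0.19 without WT replicate 2 (adjusted p = 0.520). The eWAT fits that left out 1 library ran from -0.72 to -0.34, with adjusted p from 0.0680 to 0.520. In BAT the highest C6KO library, at 16.0 CPM, reached the lowest WT library, and the difference was -0.58 ± 0.24 (adjusted p = 0.353), or -0.67 ± 0.26 without WT replicate 2 (adjusted p = 0.294). B cells also carry this receptor. Their summed markers ran from 193 to 226 CPM in WT iWAT against 240 to 342 CPM in C6KO iWAT, and overlapped in eWAT and BAT. They were led by Ebf1, which adipocyte precursors express too. In eWAT, C6KO replicate 3 had a sum of 503 CPM against 213 and 166 CPM in the other C6KO libraries. Ebf1 reached at most 206 CPM in C6KO eWAT, and Cd79b ran from 1.80 to 49.8 CPM. Replicate 3 also had the highest Fcgr2b of the C6KO libraries of eWAT, at 73.4 CPM. The part of B cells in the Fcgr2b values was not tested.

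The ratio of Fcgr3 to Fcgr2b counts sets the activating receptor against the inhibitory one within a library. In iWAT it was 3.21, 2.43 and 3.12 in WT against 1.59, 1.44 and 2.36 in C6KO. In BAT it was 2.11, 1.83 and 1.90 in WT against 1.63, 1.28 and 0.896 in C6KO. All 3 C6KO libraries were below all 3 WT libraries in both depots, and the exact two-sided permutation p was 0.1 in each, the smallest that 3 against 3 can give. In eWAT the ratio was 4.71, 4.27 and 4.01 in WT against 4.64, 4.87 and 3.51 in C6KO, and the groups overlapped. Fcgr1 to Fcgr2b averaged 0.608 in WT against 0.316 in C6KO for iWAT, 1.15 against 0.923 for eWAT, and 0.382 against 0.271 for BAT, and its groups overlapped only in BAT. Fcgr4 to Fcgr2b averaged 0.349 in WT against 0.175 in C6KO for iWAT, without overlap. For eWAT it averaged 0.680 against 0.433 and for BAT 0.213 against 0.155, and the groups overlapped in both. The ratio of the γ chain to Fcgr3 overlapped between genotypes in each depot, with group means between 0.679 and 0.830. The difference in these ratios between depots was not tested.

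**Figure D3:**
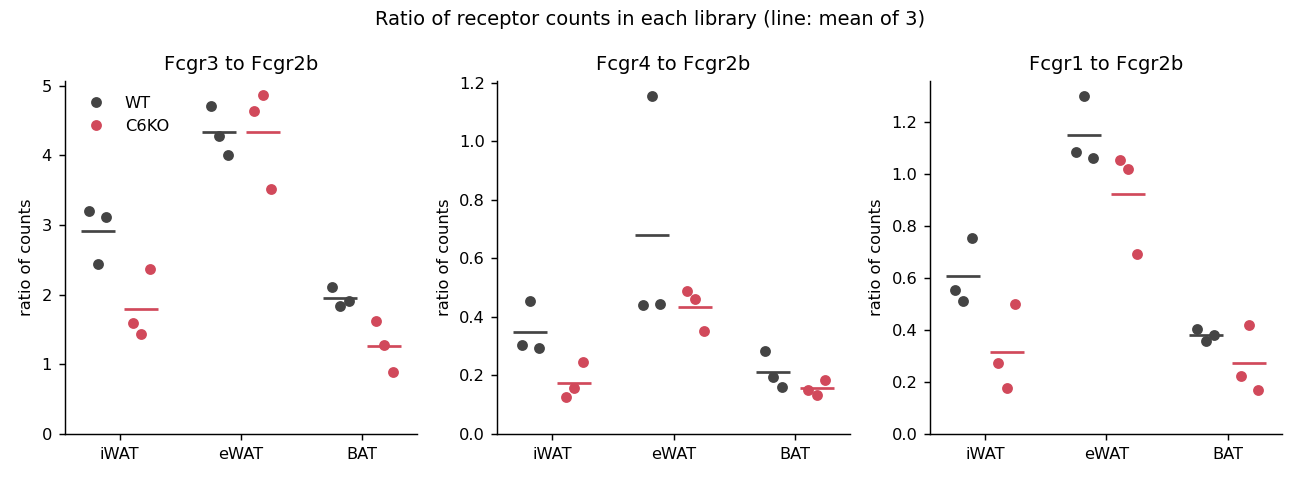
Ratio of the counts of each activating receptor to those of Fcgr2b in each library, on linear axes from 0, with a line for the mean of 3 libraries. The Fcgr3 ratio in C6KO lies below WT in iWAT and BAT, and in eWAT both genotypes average near the same value (4.33 in WT against 4.34 in C6KO).

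Fcer1a, the IgE-binding chain, passed the filter on low counts in eWAT alone. It was 10, 11 and 6.12 CPM there in WT against 2.04, 4.08 and 1.91 CPM in C6KO, a log2 difference of -1.75 ± 0.35 (3.36-fold, edgeR adjusted p = 0.0536). The fits that left out 1 library gave -2.18 to -1.56 with adjusted p from 0.0231 to 0.209. The lowest p came without C6KO replicate 2 and was the only one under the threshold. The highest came without WT replicate 2, at -1.59 ± 0.39. In iWAT it had 9, 4 and 7 counts in the WT libraries against 2, 14 and 4 in C6KO, and BAT gave 5, 7 and 8 counts against 8, 6 and 9. A difference was not detectable at those counts. Most mast cell markers moved with Fcer1a in eWAT. Their summed level there ran from 280 to 406 CPM in WT and from 150 to 215 CPM in C6KO. Of the 11 markers 4 passed the test, all lower, where 0.208% of all genes were called lower. Gata2 alone had a higher estimate (log2 0.22), and the estimates of Hdc and Kit were small (-0.15 and -0.25). Tpsb2, a mast cell tryptase and the most abundant of the markers, averaged 83.1 CPM in WT against 39 CPM in C6KO. The part of mast cells in the Fcer1a result was not tested.

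Fcgrt went the other way. In iWAT it was 311, 306 and 339 CPM in WT against 400, 489 and 385 CPM in C6KO. In BAT it was 369, 277 and 312 CPM in WT against 396, 403 and 384 CPM in C6KO. All C6KO libraries were above WT in both of these depots, a separation found for 10.9% of all genes in iWAT and 8.07% in BAT. The log2 differences were 0.41 ± 0.14 in iWAT (edgeR adjusted p = 0.215) and 0.30 ± 0.17 in BAT (adjusted p = 0.496). They were 0.46 without C6KO replicate 3 of iWAT and 0.22 without WT replicate 2 of BAT (adjusted p = 0.0853 and 0.603). In eWAT no member was higher without overlap, where 12% of all genes were, and Fcgrt differed by 0.10 ± 0.10 (adjusted p = 0.708), or 0.11 without WT replicate 2 (adjusted p = 0.854). White adipocyte markers had summed levels of 24038 to 27292 CPM in WT against 32239 to 33355 CPM in C6KO for iWAT. They were also higher without overlap in eWAT, where Fcgrt overlapped, at 10276 to 12073 against 14154 to 18194 CPM. In eWAT 2 of 8 were called higher, where 0.746% of all genes were called in either direction. In BAT the adipocyte sums overlapped, at 14323 to 22339 against 15954 to 18458 CPM. Endothelial cells use FcRn as well, and their summed markers ran from 689 to 761 CPM in WT against 952 to 1082 CPM in C6KO in eWAT, from 968 to 1232 against 1313 to 1365 CPM in BAT, and overlapped in iWAT. The part of either list in the Fcgrt values was not tested. B2m, which encodes the FcRn light chain, was not higher, with log2 estimates of -0.16 for iWAT, -0.24 for eWAT and -0.84 for BAT (adjusted p = 0.710, 0.609 and 0.0941).

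**Figure D4:**
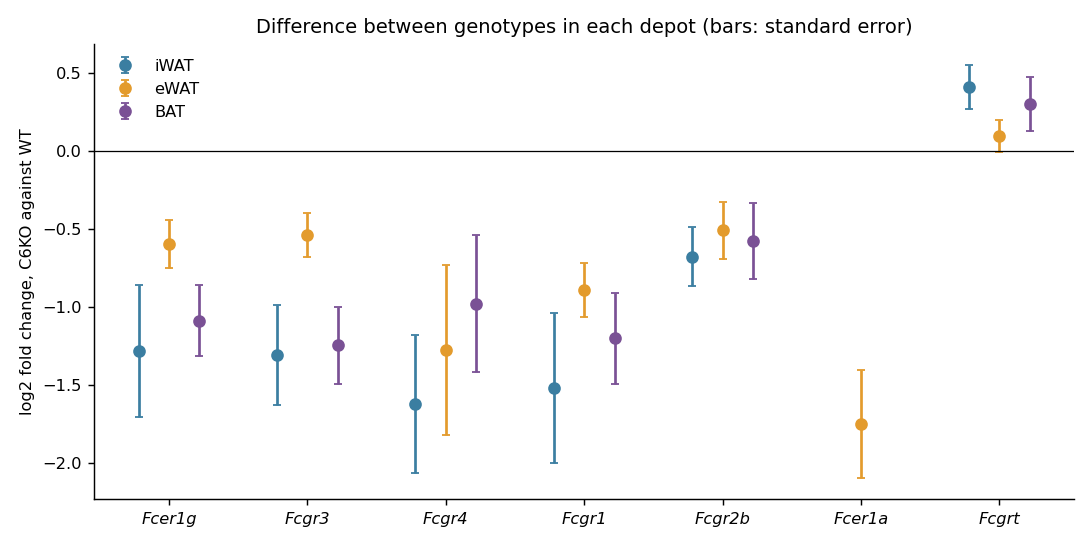
Log2 fold change of each Fc receptor gene, C6KO against WT, with the standard error from edgeR, by depot. Fcgrt lies above 0 and every other gene tested lies below, from -0.51 for Fcgr2b in eWAT to -1.75 for Fcer1a in eWAT. Fcer1a is shown for eWAT only, since it had too few counts elsewhere.

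Macrophage markers moved with the IgG receptors. Over 19 markers the summed level ran from 2614 to 3128 CPM in WT against 718 to 2015 CPM in C6KO in iWAT, and C6KO replicate 3 was the highest of its group, as it was for Fcer1g and Fcgr3. The eWAT ranges were 9726 to 12560 against 6337 to 7837 CPM, and those of BAT were 1027 to 1270 against 439 to 632 CPM. None of the 19 was at 0 in every library of a depot. Of those tested, 19 of 19 (iWAT), 16 of 19 (eWAT) and 15 of 17 (BAT) had lower estimates in C6KO, with 0, 1 and 5 called lower. Of all genes, 0.208% in eWAT and 1.07% in BAT were called lower. Lyz2, a lysozyme of myeloid cells and the most abundant macrophage marker, averaged 640 CPM in WT against 281 CPM in C6KO in iWAT. Relative to the macrophage sum, Fcgr3 was 2.85% to 3.20% in WT against 2.74% to 3.29% in C6KO for iWAT. It was 3.15% to 3.65% against 3.25% to 3.47% for eWAT, and 2.85% to 3.42% against 2.48% to 3.25% for BAT. These ranges overlapped in each depot, as did those of Fcer1g and Fcgr4. Fcgr1 was 0.834% to 0.982% of the sum in WT against 0.683% to 0.739% in C6KO in eWAT, lower without overlap, and overlapped in iWAT and BAT. Fcgr2b was 1.51% to 1.80% of the sum in WT against 1.98% to 2.77% in C6KO in BAT, without overlap, and overlapped in eWAT. In iWAT it was 0.937% to 1.17% in WT against 2.07%, 2.25% and 1.16% in C6KO, and only replicate 3 overlapped WT. The part of macrophage content in the receptor values was not tested. Summed monocyte markers were also lower without overlap in the white depots, and overlapped in BAT. They ran from 228 to 258 CPM in WT against 150 to 204 CPM in C6KO for iWAT, and 372 to 513 against 322 to 364 CPM for eWAT. Ace and F13a1 led these sums, with means of 158 and 102 CPM in WT eWAT against 141 and 83.8 CPM in C6KO. Within the list, Chil3, Nr4a1 and Treml4 had higher estimates in eWAT (log2 0.59, 0.17 and 0.0053), and Treml4 in iWAT (0.45). The other monocyte markers had lower estimates in these depots. Neutrophil markers overlapped between genotypes in each depot, and Ly6g, a defining neutrophil marker, was at 0 counts in all libraries.

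The C6KO effect was then compared between depots as an interaction in one fit of all 18 libraries. No member was called in any of the 3 contrasts, where 0%, 0.183% and 0.536% of all 15866 genes were called for eWAT against iWAT, iWAT against BAT and eWAT against BAT. Fcer1a entered this fit through its eWAT counts, and a difference of effects was not detectable at its 2 to 14 counts per library in iWAT and 5 to 9 in BAT. For Fcgr3 the log2 difference of effects was 0.77 ± 0.39 for eWAT against iWAT and 0.72 ± 0.40 for eWAT against BAT (edgeR adjusted p = 0.917 and 0.529). For iWAT against BAT the Fcgr3 value was -0.04 ± 0.40 (adjusted p = 0.992). Without C6KO replicate 3 of iWAT, 3 members passed for eWAT against iWAT, where 1.41% of all genes were called in the same direction. The 3 were Fcer1g (1.39 ± 0.28, adjusted p = 0.0135), Fcgr1 (1.45 ± 0.31, adjusted p = 0.0216) and Fcgr3 (1.28 ± 0.29, adjusted p = 0.0324), with the larger effect in iWAT. No other left-out library gave a call of a member in this contrast, and the library left out is the C6KO library nearest to WT.

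The signaling genes around the receptors were followed in a list of 98 genes, of which 87 were counted. The genes of the antibody chains themselves, 11 in number, were not analysed here. In BAT, 8 of 71 genes tested were called lower and none higher, where 1.07% of all genes were called lower. Of the 71, 62 had lower estimates, against 53.9% of all genes. The median log2 difference was -0.74, against -0.03 over all genes. Tyrobp, which encodes the ITAM adaptor DAP12 and is a counterpart of the γ chain, fell from 28.2 ± 8.63 to 8.15 ± 0.784 CPM (SD, n = 3), a log2 change of -1.79 ± 0.24 (edgeR adjusted p = 0.0110). Lilrb4a, an inhibitory receptor of myeloid cells, fell by 1.96 ± 0.24 on the same log2 scale (adjusted p = 0.00960), and Cd300a, another inhibitory receptor, by 1.54 ± 0.30 (adjusted p = 0.0449). Clec7a, the β-glucan receptor dectin-1, fell by 1.68 ± 0.27 (adjusted p = 0.0242). The adaptors Blnk and Fyb fell by 1.72 ± 0.31 and 1.59 ± 0.31 (adjusted p = 0.0366 and 0.0457). Myo1f, a myosin of leukocytes, and Coro1a, an actin-binding protein, fell by 1.71 ± 0.29 and 2.02 ± 0.34 (adjusted p = 0.0282 and 0.0328). The count of genes called lower fell to 0 when C6KO replicate 2 or 3 of BAT was left out, and to between 2 and 5 without any other library.

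In eWAT, Fyb alone was called, lower, of 84 genes tested, where 0.208% of all genes were called lower. This adaptor couples immune receptors to actin and integrins, and it fell from 217 ± 29.0 to 119 ± 6.02 CPM, a log2 change of -0.87 ± 0.12 (edgeR adjusted p = 0.0320). It was not called without any one of WT replicates 1, 2 and 3 or C6KO replicate 1. In that depot 71 genes had lower estimates, against 50.9% of all genes, with a median of -0.32 against -0.01. Clec7a, which the list grouped with receptors that signal with the γ chain, had the smallest p of that group (-0.92 ± 0.18, adjusted p = 0.0546). Whether Clec7a signals through that chain was not tested here. Among the actin genes it was Dock2, an exchange factor for Rac (-0.55 ± 0.11, adjusted p = 0.0546). Sirpa, the inhibitory receptor for CD47, led the inhibitors (-0.48 ± 0.11, adjusted p = 0.0632). Prkcb, a protein kinase C (-0.56 ± 0.13, adjusted p = 0.0646), and the kinase Fyn (-0.41 ± 0.12, adjusted p = 0.115) led their roles.

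In iWAT 0 of 81 genes were called by edgeR, while 40 were lower and 2 higher at an unadjusted p below 0.05, where 9.29% and 7.25% of all genes were. DESeq2 called 20 lower and 1 higher, where it called 3.22% and 1.08% of all genes. Estimates were lower for 71 genes, against 46.2% of all genes, with a median of -0.54 against 0.03. Plcg2, the phospholipase downstream of Syk, had the smallest p (-1.14 ± 0.23, adjusted p = 0.145), followed among the roles by Sirpa (-1.41 ± 0.29, adjusted p = 0.154) and Fyb (-1.85 ± 0.41, adjusted p = 0.159). Without C6KO replicate 3, 33 genes were called lower and 1 higher, where 6.43% and 2.21% of all genes were in that fit. Pigr, the receptor that carries IgA and IgM across epithelia, had higher estimates in both white depots (2.13 ± 0.77 in iWAT and 2.06 ± 0.52 in eWAT, adjusted p = 0.234 and 0.0800), from a mean of 0.400 CPM in WT iWAT and 0.402 CPM in WT eWAT. Summed hepatocyte markers were also higher without overlap in eWAT, at 11.3 to 17.7 CPM in WT against 34.6 to 102 CPM in C6KO. In iWAT they overlapped, at 13.2 to 59.8 CPM in WT against 47.5 to 307 CPM in C6KO. The highest library of each genotype in iWAT was replicate 3, and the other C6KO libraries were at 52.9 and 47.5 CPM. Their part in the Pigr values was not tested.

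**Figure D5:**
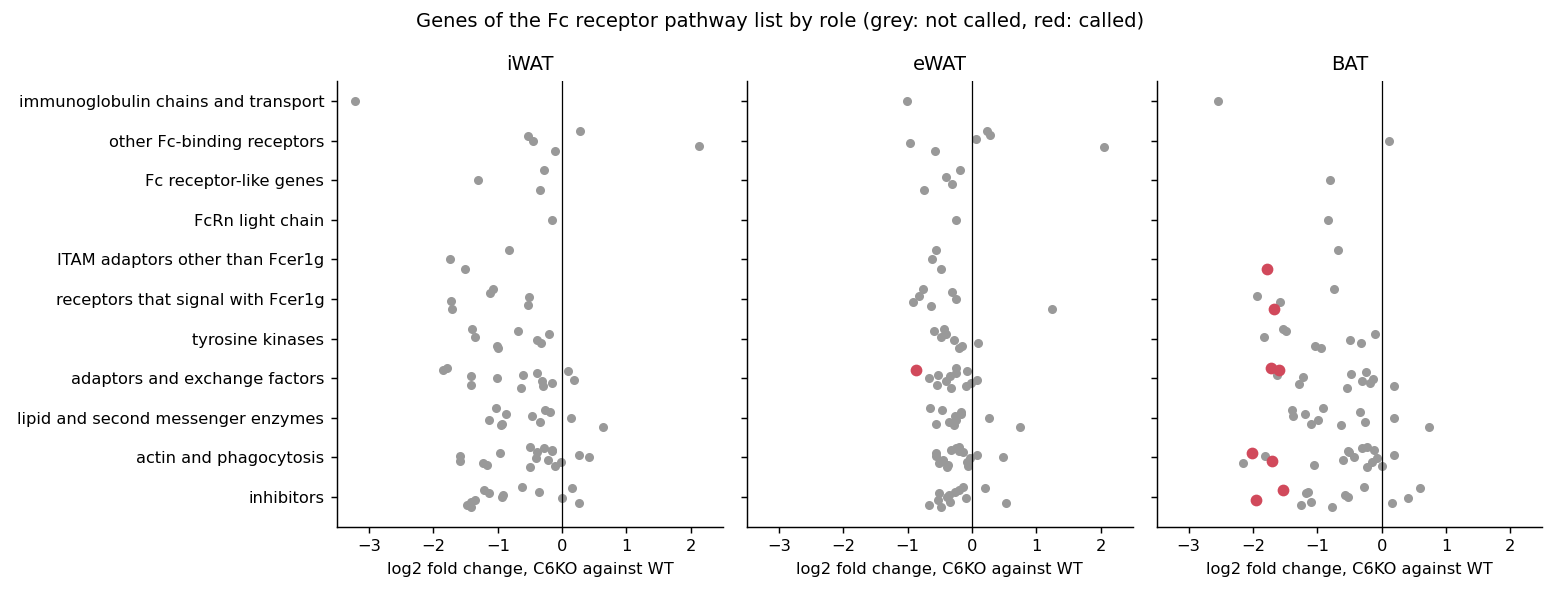
Log2 fold change, C6KO against WT, of the tested genes in the Fc receptor pathway list, by role and depot, with called genes in red. All 9 called points, 8 in BAT and 1 in eWAT, lie left of 0.

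Over all 18 libraries, the genes whose profiles were nearest to each member were found by the root mean square difference of mean-centered log2 CPM. The nearest to Fcer1g were C1qb (0.167), C1qc (0.169) and Fcgr3 (0.195), and the nearest to Fcgr3 were C1qc (0.151), C1qb (0.162) and Fcer1g (0.195), where the median over 13131 genes was 1.67 for Fcer1g and 1.63 for Fcgr3. Fcgr1 was nearest to Cybb (0.250), Plek (0.312) and C1qc (0.315), and Fcgr4 to Ly86 (0.285), C1qc (0.374) and C1qb (0.376). Fcgr2b was nearest to Ccna2 (0.238), Mad2l1 (0.246) and Ppfia4 (0.247), and no other member or complement gene was among its 3. Fcer1a was nearest to Cpa3 (0.597), which encodes a mast cell carboxypeptidase, then Sfrp1 (0.602) and Map2 (0.709). Fcgrt was nearest to Arpc1a (0.0749), Ldah (0.116) and Psmc1 (0.121), against a median of 0.514, and it varied little over the libraries. The points share libraries and depth, so these values are descriptions.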

How the data were processed

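Poly(A) RNA was sequenced on a NextSeq 2000. The authors ran STAR with default settings against mm10 and HOMER to count exonic reads, keeping 1 transcript per gene. They deposited 3 tables of raw counts, 1 per depot, each with 25124 genes. The submitters' processing notes name HOMER, DESeq2 and mm10. Strandedness, annotation release and tool versions are not given in the sources used here. For 2619 genes, no member among them, the counted transcript differed between tables, so their levels were not compared across depots by length. Groups and replicate numbers came from the labels, which call the libraries biological replicates. Whether the depots came from the same animals is not given, and libraries were treated as independent. All value columns had a sample.

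From the counts, edgeR 4.0.16 (limma 3.58.1, R 4.3.3) was fitted per depot with filterByExpr, TMM normalization and robust quasi-likelihood, and in one fit of all 18 libraries for contrasts between depots. A call needed an adjusted p below 0.05 and a fold of at least 1.5. Standard errors are the log2 fold change divided by the root of the F statistic, and CPM are TMM-normalized counts in a library scaled to 1000000. Alternatives were DESeq2 1.42.0, other scalings and filters, no fold minimum, all libraries in one fit, a replicate block and leaving out each library. The scripts were tested on simulated data. Totals of 7803108 to 19139694 counts limit precision for genes with few counts.

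The members and gene lists were chosen with earlier results of these data known. Genes named are all members, Casp6, pathway genes called or with the smallest p of their role (given for the main roles), the 3 genes nearest in profile and the most abundant markers. A gene that this rule names in BAT is not reported here. Shared sequence was searched in GENCODE M21 with windows of 50 bases, using the coding transcript nearest in length to the counted one.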

Additional observations from a re-analysis of the deposited data

How the results depend on the processing

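Where edgeR called no member, other settings called some. In iWAT, DESeq2 called 5 lower, where it called 3.22% of all genes lower, and the fit of all 18 libraries called 2. The iWAT fits that left out 1 library called 0 to 5. The 5 came without C6KO replicate 3, where 6.43% of all genes were called lower. In eWAT, DESeq2 called 3 (1.23% of all genes lower), no filter on low counts 2, and leaving out 1 library 0 to 2. In BAT, DESeq2 called 3 (2.53% of all genes lower) and no filter 2. There, at least 10 counts in every library called 1, the fit of all 18 libraries 1, and leaving out 1 library 0 to 1. Of the pathway genes, DESeq2 called 21 in iWAT, 21 in BAT and 7 in eWAT, and all 18 libraries in one fit called 13, 17 and 0. No filter called 2 in eWAT. Leaving out 1 library gave 0 to 34 (iWAT), 0 to 2 (eWAT) and 0 to 5 (BAT). For the other settings of this section the share of all genes called is not given. Their counts describe the settings and are not results about the Fc receptors.

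The replicate number did not pair WT with C6KO libraries. Same-numbered WT and C6KO libraries of a depot had a mean correlation of deviations of -0.05, and 2 of 9 were over 0.1. Between depots of one genotype, same-numbered libraries had a mean of 0.053, with 2 of 18 over 0.1. Libraries with different numbers had a mean of -0.027 there, with 3 of 36 over 0.1. These values do not settle whether depots came from the same animals. With the replicate block, 3 members were called in eWAT and 1 in BAT, and 4 pathway genes in each of iWAT, eWAT and BAT.

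For BAT against iWAT in WT, leaving out 1 library gave 2 to 4 members called. For the C6KO effect in eWAT against iWAT it gave 0 to 3. In WT, Fcer1g ranked 2 in iWAT and BAT and 1 in eWAT by level per length, and 3 in each without division by length.

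Members' differences between genotypes within a depot kept their direction under each alternative run. Some differences that had missed the test changed sign. Their main estimates reached 0.35 for Fcgr4 in eWAT against iWAT and -0.32 for Fcgr1 in iWAT against BAT. With 1 library left out, the difference of C6KO effects in iWAT against BAT ran from -0.88 to 0.12 for Fcer1g, from -1.29 to 0.22 for Fcer1a, from -1.13 to 0.0084 for Fcgr1, from -0.30 to 0.14 for Fcgr2b, from -0.56 to 0.21 for Fcgr3 and from -0.022 to 0.23 for Fcgrt. For eWAT against BAT it ran from -0.13 to 0.31 for Fcgr2b and from -0.59 to 0.52 for Fcgr4, which was 0.015 with the replicate block. For eWAT against iWAT it ran from -0.031 to 0.37 for Fcgr2b and from -0.0063 to 1.15 for Fcgr4. For BAT against iWAT in WT, Fcgrt ran from -0.017 to 0.24 and was -0.024 with total counts as the only scaling. The cause of these changes was not tested. Fcer1a had 2 to 14 counts per library in iWAT and 5 to 9 in BAT, and Fcgr4 had 14 to 42 in BAT, so that counting error is large for them there.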
